A study of Mus musculus with 8 samples.

Results

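The BCL2 family is the set of proteins that decides whether the outer membrane of the mitochondrion is opened during apoptosis. The 10 members described here are Bcl2, Bcl2l1, Mcl1, Bax, Bak1, Bcl2l11, Bbc3, Pmaip1, Bid and Bad. Every probe whose RefSeq transcript belongs to 1 of these genes was taken, which gave 17 of the 41174 probes on the array. Bcl2l1 and Bcl2l11 had 3 probes each, Bcl2, Mcl1 and Bak1 had 2 each, and the other members had 1 each. All 17 probes were well above background on all 8 arrays, so none was lost to the filter on dim probes, and none was saturated.

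The arrays compared 4 Glis3KO2 samples with 4 wild type (WT) samples of Thy1+ cells from the testis of C57BL/6 mice at postnatal day 4. Sorting on Thy1, a protein of the cell surface, enriches the stem and progenitor cells among spermatogonia. Glis3 encodes a zinc finger factor related to the GLI proteins, and the study concerns its part in spermatogenesis. The sources used here do not say how the Glis3KO2 allele was built or whether it acts in the whole animal or in 1 cell type. The design text names 3 testes of each genotype and the labels list 4 samples, and nothing says that they came from separate animals. The spread that the p-values rest on may therefore be technical.

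In the family, Bcl2, Bcl2l1 (which encodes BCL-XL) and Mcl1 are guardians that keep the mitochondrial membrane closed. Bax and Bak1 are the effectors that form the pores through which cytochrome c leaves the mitochondrion. The BH3-only proteins, among them those of Bcl2l11 (BIM), Bbc3 (PUMA), Pmaip1 (NOXA), Bid and Bad, sense stress and bind the guardians or the effectors. In the mouse testis, loss of Bax disturbs the early wave of germ cell death that limits the number of spermatogonia. Much of the control in this family is through protein stability, phosphorylation and location, which RNA does not show.

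Members with the letters of the GLIS core site near a gene start are shown as sequence, since Glis3 is the gene altered in these mice. TGGGGGGT, the core of the site that GLIS zinc fingers are known to bind, was searched on both strands of the RefSeq promoter windows, each of 300 bases from 250 before to 50 after a gene start (GRCm38.p6). It occurred in 501 of 32851 windows of all genes (1.53%). Among the members 9 genes had 15 windows, and 4 windows of 3 genes held it. The forkhead site GTAAACA, which FOXO factors upstream of Bcl2l11 and Bbc3 are known to bind, was searched in the same way and occurred in 1199 windows (3.65%), 2 of them of members. The 3 windows below run 5′ to 3′ on the gene's strand, with both motifs in capitals. A match is a description of letters and not a binding site.
Bcl2l11, chr2:128125788-128126087, plus strand: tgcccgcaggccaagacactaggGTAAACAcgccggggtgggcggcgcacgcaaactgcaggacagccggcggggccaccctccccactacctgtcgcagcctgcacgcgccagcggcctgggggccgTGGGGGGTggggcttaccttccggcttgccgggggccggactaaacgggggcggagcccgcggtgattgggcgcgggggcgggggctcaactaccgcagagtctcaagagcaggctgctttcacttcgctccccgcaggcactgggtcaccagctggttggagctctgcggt
Bcl2l1, chr2:152830668-152830967, minus strand: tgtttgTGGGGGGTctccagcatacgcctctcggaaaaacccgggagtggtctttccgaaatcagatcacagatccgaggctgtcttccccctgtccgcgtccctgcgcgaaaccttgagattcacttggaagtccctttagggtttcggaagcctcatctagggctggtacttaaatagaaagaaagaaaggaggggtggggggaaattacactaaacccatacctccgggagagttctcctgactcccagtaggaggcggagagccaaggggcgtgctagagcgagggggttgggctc
Bbc3, chr7:16310011-16310310, plus strand: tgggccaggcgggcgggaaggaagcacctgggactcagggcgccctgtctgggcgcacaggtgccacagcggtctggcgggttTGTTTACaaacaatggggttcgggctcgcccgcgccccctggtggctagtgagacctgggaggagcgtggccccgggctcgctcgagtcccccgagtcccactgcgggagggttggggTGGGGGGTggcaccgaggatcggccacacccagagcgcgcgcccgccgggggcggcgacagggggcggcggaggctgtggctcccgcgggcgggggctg

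In the Bcl2l11 window the GLIS core lay at -122 to -115 and the forkhead site at -227 to -221, counted from the gene start. In the Bcl2l1 window the GLIS core lay at -244 to -237, near the window's upstream end. In the Bbc3 window the GLIS core lay at -49 to -42, and the forkhead site, on the opposite strand and so written TGTTTAC, lay at -167 to -161. The fourth matching window starts at another Bbc3 gene start and holds the same copy. The arrays do not measure binding, and the values of these 3 genes are given with their roles.

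Signal is given throughout as log2 of the processed intensity minus the array's 75th percentile, so that 0 is a spot as bright as that percentile. Differences are Glis3KO2 minus WT on that scale, tested with limma and adjusted by Benjamini-Hochberg over 36429 probes kept as well above background on at least 4 arrays. A probe's level was not set against another probe's, since probes differ in how strongly they bind.

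No member differed between the genotypes by this test. At adjusted p under 0.05 the count was 0 of 17 member probes, against 0 of all 36429 probes (0%). At unadjusted p under 0.05 it was again 0 of 17, against 2328 of all probes (6.39%), 912 higher (2.5%) and 1416 lower (3.89%) in Glis3KO2. With 1 array left out the unadjusted count became 1, for Pmaip1 without WT replicate 1, for Bid without WT replicate 2, and for the Bcl2l1 probe A_51_P299454 without WT replicate 3 or 4. All probes gave 1384 to 4244 at unadjusted p under 0.05 with 1 array left out. The groups overlapped on all 17 member probes, and were apart on 1197 of all probes (3.29%). The mean was higher in Glis3KO2 for 11 member probes and lower for 6, with a median difference of 0.05 against -0.06 over all probes, and it was higher for 8 with normexp, a background correction that models each spot as signal plus noise, and for 3 without WT replicates 3 and 4. Normexp moved the median of all probes to -0.31, and the values named with it below are to be read against that shift. With normexp and quantile normalization that median was -0.02, and the mean was higher in Glis3KO2 for 10 member probes. Bbc3 turned there, to -0.10. The absolute difference was under 0.5 for 13 of the 17 (76.5%) and for 76.5% of all probes. The interval that reached farthest from 0 ended at -2.50, for a Bcl2l1 probe, and 4 arrays of each genotype cannot resolve smaller changes than the intervals given for each probe.

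**Figure D1:**
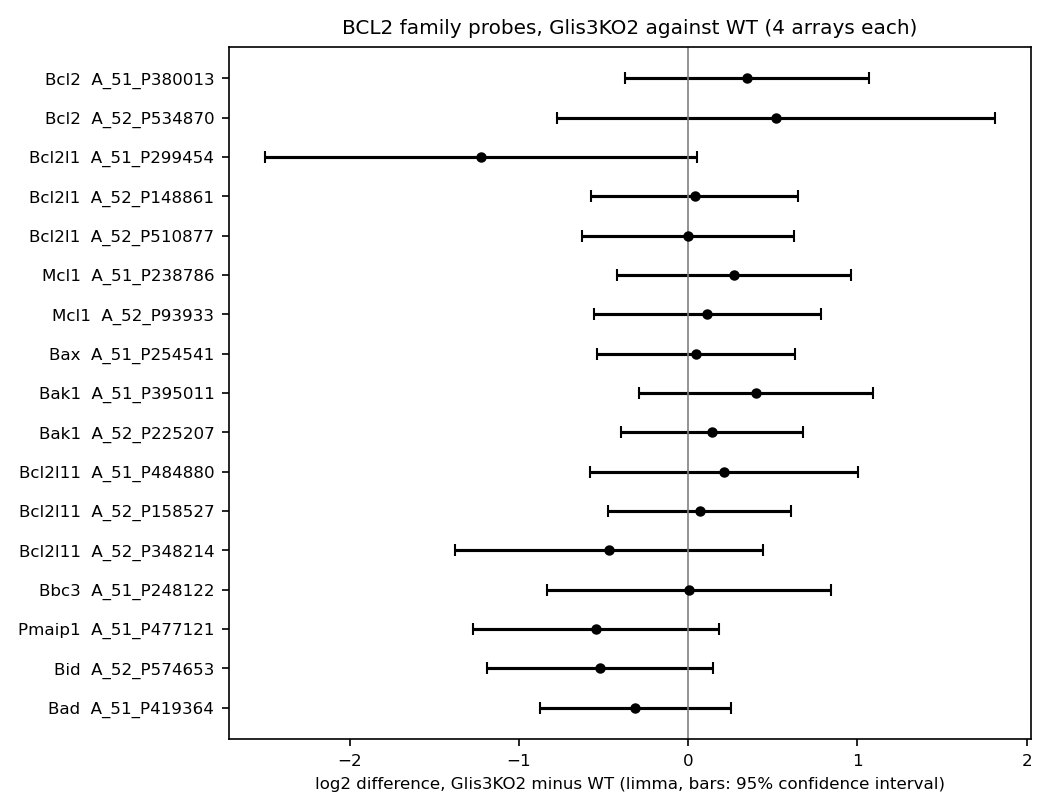
Log2 difference (Glis3KO2 minus WT, x axis) of the 17 BCL2 family probes (y axis), with 95% confidence intervals from limma over 4 arrays of each genotype. Every interval crosses 0. The Bcl2l1 probe A_51_P299454 lies farthest from 0, at -1.22.

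Several arrays stood apart from the others, and WT replicates 3 and 4 touch the values of several members. On the first principal component of all probes (28.6% of the variance) WT replicate 3 was at 102 and WT replicate 4 at 82.4, with no other array above 10.9. Glis3KO2 replicate 2 was at the opposite end at -81.5, and its stroma markers, centred and averaged, were the highest of the 8 arrays at 1.97. WT replicate 1 stood alone on the second component (19.9%) at -125.2. Glis3 itself had log2 signals of -1.98, -2.18, -1.18 and -1.32 in Glis3KO2 and -1.09, -1.01, 0.57 and 0.60 in WT. The groups did not overlap for Glis3 (difference -1.43, SE 0.45, adjusted p = 0.697 in limma), and the difference was -0.62 without WT replicates 3 and 4. Whether its probe lies inside the deleted part is not known here. Each slide held replicates of both genotypes, but WT arrays were always at positions 1 and 2 and Glis3KO2 arrays at positions 3 and 4, so position and genotype cannot be told apart. Germ cell markers were measured for 13 of 14 genes, with 12 of them well above background on all arrays. Markers of stroma, smooth muscle, macrophages, Sertoli cells and other types were measured too. No measured marker was below background on all 8 arrays, but 86.0% to 90.3% of all spots were well above background, so this does not show which cell types the samples held.

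Bcl2, the founding guardian of the family, had higher means in Glis3KO2 on both probes, by less than the spread between the WT arrays. Probe A_51_P380013 (transcript NM_177410) had log2 signals of 3.79, 4.07, 3.73 and 3.74 in Glis3KO2 replicates 1 to 4, against 4.17, 3.87, 3.10 and 2.80 in WT replicates 1 to 4. Probe A_52_P534870 (transcript NM_009741) had 1.58, 2.08, 1.36 and 0.38 in Glis3KO2, against 2.14, 1.52, 0.12 and -0.46 in WT. On both probes WT replicate 1 was the highest of the 8 arrays, WT replicate 2 lay among the Glis3KO2 arrays, and WT replicates 3 and 4 lay below all 4 of them. The differences were 0.35 (SE 0.32, 95% interval -0.37 to 1.07, adjusted p = 0.821) and 0.52 (SE 0.58, interval -0.78 to 1.81, adjusted p = 0.854). The probes followed each other over the 8 arrays (r = 0.93), as a description of 2 probes read on the same libraries.

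The Bcl2 difference depended on which WT arrays entered. Between replicates 1 and 2 of each genotype it was -0.09 for A_51_P380013 and -0.0022 for A_52_P534870, and between replicates 3 and 4 it was 0.79 and 1.04. Without WT replicates 3 and 4 the direction turned, to -0.19 and -0.48. Without WT replicate 1, the highest array on both probes, the differences were larger, at 0.58 and 0.95. By slide, the differences were 0.12 and 0.57 for A_51_P380013 and 0.34 and 0.70 for A_52_P534870. The germ cell markers, centred over the arrays and averaged, stood at 1.04 and 1.31 on WT replicates 3 and 4 and between -0.72 and -0.10 on the other 6 arrays. All 13 measured germ cell markers were lower in Glis3KO2, and their summed level was 24.4 to 41.4 in Glis3KO2 and 25.6 to 102.9 in WT. The 6 smooth muscle and 8 macrophage markers were all higher in Glis3KO2 too and were at their lowest on those 2 WT arrays. The 8 stroma markers, all higher in Glis3KO2, stood at -1.26 and -1.14 on the same 2 WT arrays, and their summed level was 85.1 to 327.1 in Glis3KO2 and 35.2 to 156.5 in WT. The part of these cell types in the Bcl2 values was not tested, and in bulk RNA fewer cells of a type and less RNA per cell cannot be told apart.

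**Figure D2:**
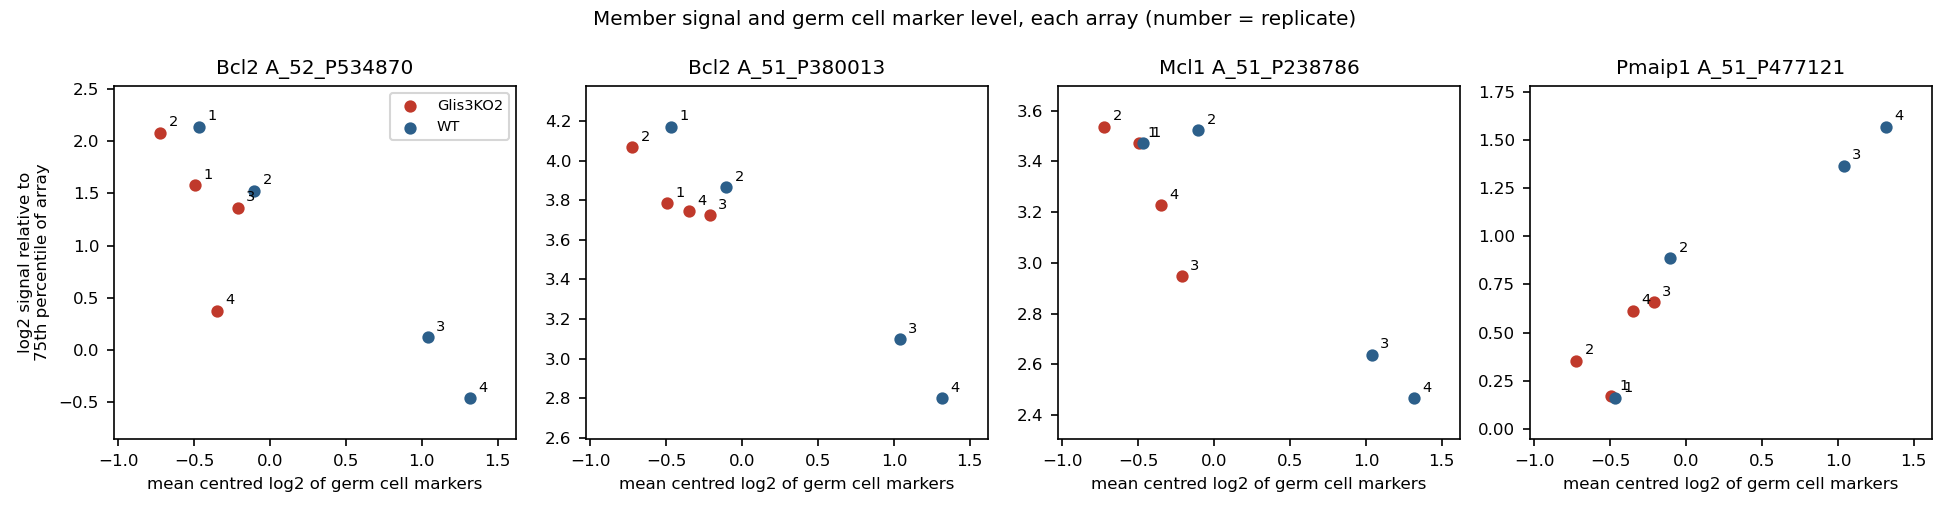
Log2 signal relative to the array's upper quartile of both Bcl2 probes, Mcl1 A_51_P238786 and Pmaip1 (y axes) against the mean centred log2 signal of 13 germ cell markers (x axis), with 1 numbered point for each Glis3KO2 and WT replicate. Both Bcl2 probes and this Mcl1 probe are low and Pmaip1 is high on WT replicates 3 and 4, where germ cell markers stand at 1.04 and 1.31. The probes shown are a choice among the 17 member probes. The Mcl1 probe not shown, A_52_P93933, was lowest on Glis3KO2 replicate 4, at 2.86.

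Mcl1 encodes a short-lived guardian, and both of its probes lay within the spread between arrays. Probe A_51_P238786 had 3.47, 3.54, 2.95 and 3.23 in Glis3KO2, against 3.47, 3.52, 2.64 and 2.47 in WT. Probe A_52_P93933 had 3.70, 3.84, 3.52 and 2.86 in Glis3KO2, against 3.80, 3.61, 2.99 and 3.08 in WT. The genotypes overlapped on both, and WT replicates 3 and 4 were the lowest WT arrays on both. The differences were 0.27 (SE 0.31, interval -0.42 to 0.96, adjusted p = 0.858) and 0.11 (SE 0.30, interval -0.56 to 0.78, adjusted p = 0.948). Without WT replicates 3 and 4 they were -0.20 and -0.22.

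Bcl2l1, the gene of the guardian BCL-XL, gave 3 probes that disagreed. Probe A_51_P299454 had -0.84, -1.01, -1.18 and -1.56 in Glis3KO2, against 2.02, -0.10, -0.69 and -0.92 in WT. WT replicate 1 stood far above the other 7 arrays, and each Glis3KO2 array was below the WT array of the same number. The difference was -1.22 (SE 0.57, interval -2.50 to 0.05, adjusted p = 0.759), a fold of 0.428. Without WT replicate 1 it was -0.58, and without WT replicates 3 and 4 it was -2.11. Blocked by replicate number, the unadjusted p was 0.0262 and the adjusted p 0.532.

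The other 2 Bcl2l1 probes showed no such gap. Probe A_52_P148861, printed 10 times on each array, had -0.34, -0.31, -0.90 and -0.15 in Glis3KO2, against -0.22, -0.53, -0.95 and -0.15 in WT. Probe A_52_P510877 had 0.89, 0.45, 0.25 and -0.33 in Glis3KO2, against 0.17, 0.45, 0.35 and 0.30 in WT. WT replicate 1 was not the highest array on A_52_P510877, nor on A_52_P148861. Their differences were 0.04 (SE 0.27, interval -0.57 to 0.65, adjusted p = 0.984) and -0.0024 (SE 0.28, interval -0.63 to 0.63, adjusted p = 0.999). Over the 8 arrays the 3 probes correlated in pairs at 0.15, 0.06 and -0.20, so the value of A_51_P299454 cannot be given as that of the gene. On WT replicate 1 the Leydig cell markers stood at 1.53, against 0.57 or less on every other array, and their summed level was 16.6 to 20.2 in Glis3KO2 and 8.86 to 65.6 in WT. Their part in the A_51_P299454 value was not tested.

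**Figure D3:**
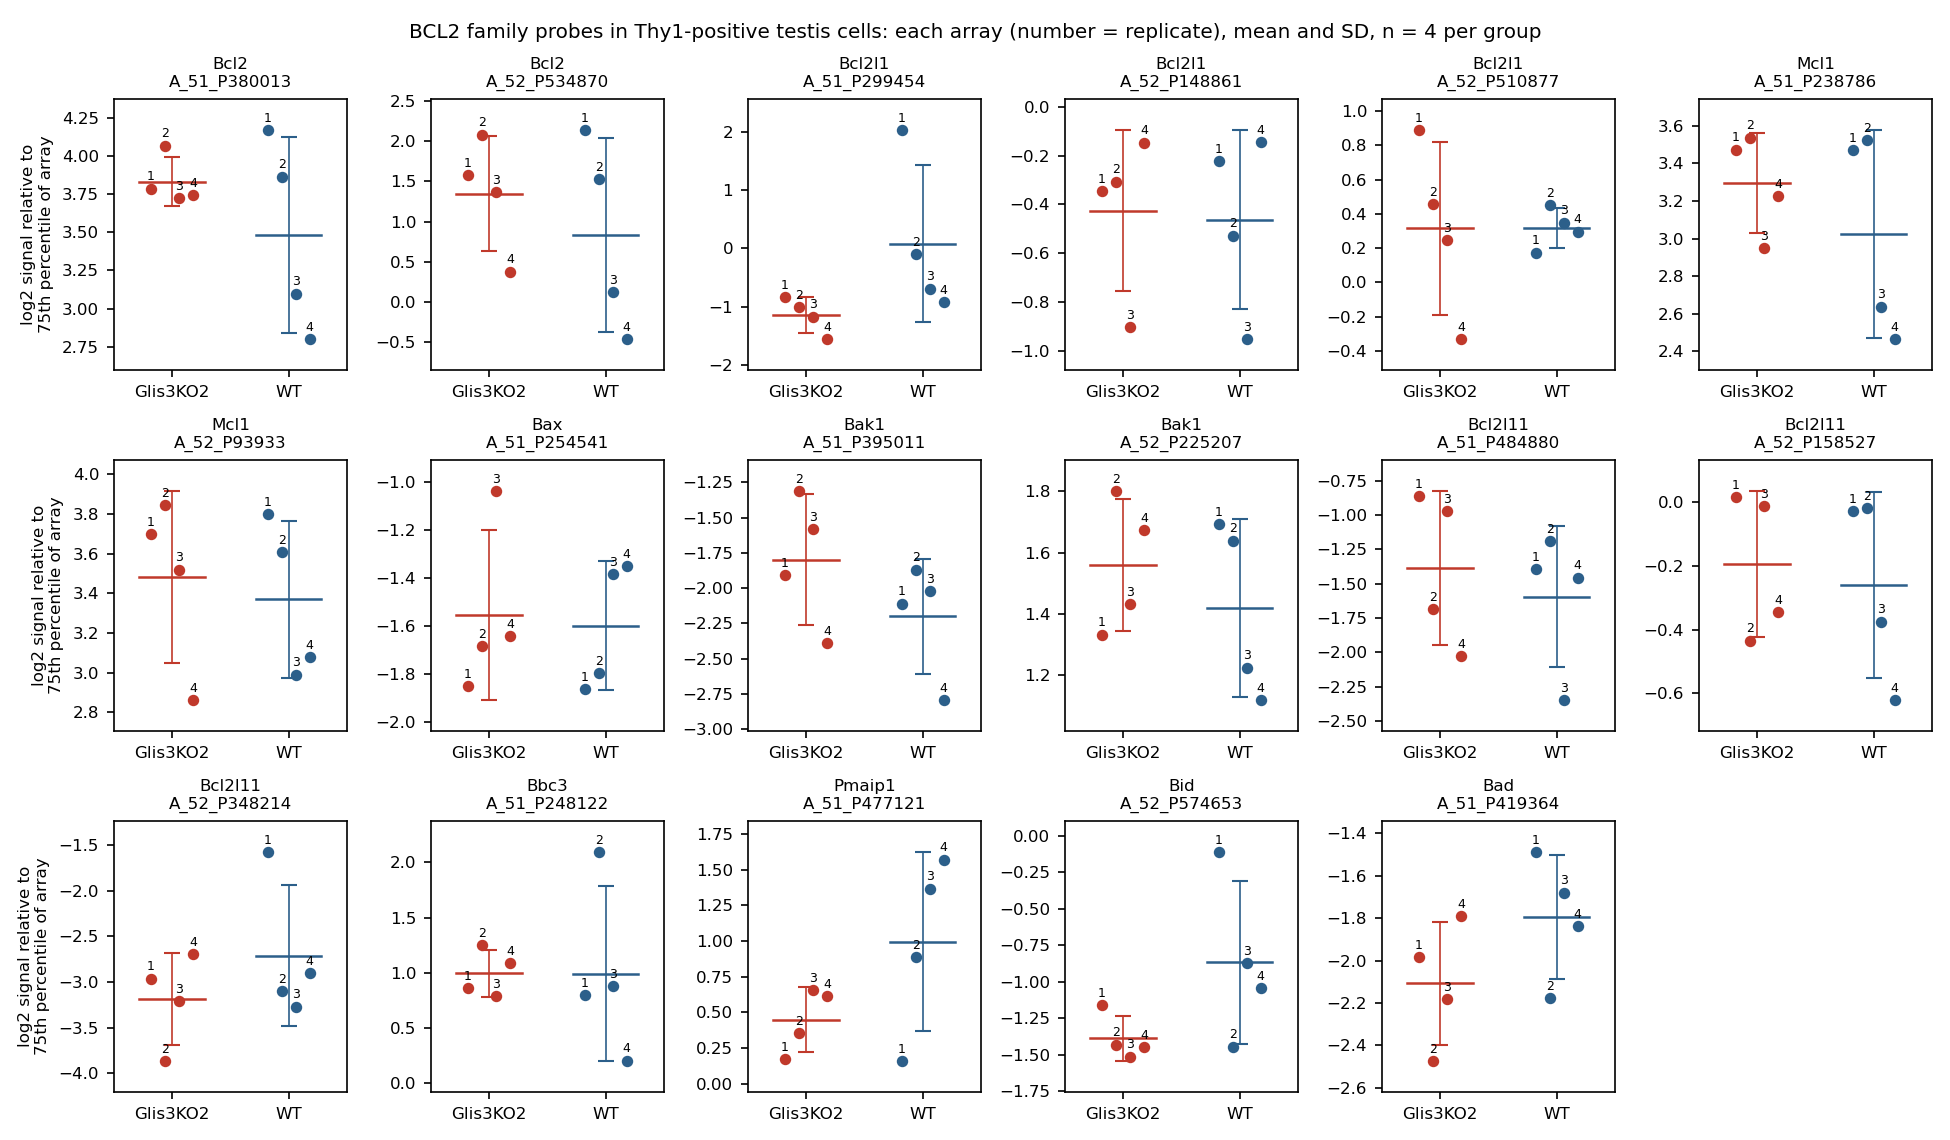
Log2 signal of the 17 BCL2 family probes (y axis, relative to the 75th percentile of the array), with Glis3KO2 left of WT, 1 numbered point for each replicate, and the mean and SD of 4 arrays as lines and bars. The groups overlap on every probe, and WT replicate 1 stands at 2.02 on the Bcl2l1 probe A_51_P299454.

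Bax, the effector that moves from the cytosol to the mitochondrion, differed between the genotypes by far less than the spread between arrays. Its probe A_51_P254541 had -1.85, -1.68, -1.04 and -1.64 in Glis3KO2, against -1.86, -1.80, -1.38 and -1.35 in WT. In both genotypes replicates 1 and 2 were at the low end. The difference was 0.05 (SE 0.26, interval -0.54 to 0.63, adjusted p = 0.978), -0.28 with normexp, and 0.05 with normexp and quantile normalization. As a fold this is 1.03 with an interval of 0.688 to 1.55, so a change beyond those bounds lies outside the 95% interval and a smaller one was not detectable with 4 arrays each.

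Bak1, the effector that resides on the mitochondrion, had 2 probes with higher means in Glis3KO2. A_51_P395011 turned to -0.14 with normexp, and was 0.19 with normexp and quantile normalization. Probe A_51_P395011 had -1.91, -1.31, -1.58 and -2.39 in Glis3KO2, against -2.11, -1.87, -2.02 and -2.79 in WT. Each Glis3KO2 array was above the WT array of the same number, but the groups overlapped, and the difference was 0.40 (SE 0.31, interval -0.29 to 1.09, adjusted p = 0.790). Probe A_52_P225207 had 1.33, 1.80, 1.43 and 1.67 in Glis3KO2, against 1.69, 1.64, 1.23 and 1.12 in WT. Its difference was 0.14 (SE 0.24, interval -0.40 to 0.68, adjusted p = 0.906), and it was -0.11 without WT replicates 3 and 4.

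The balance of Bax to Bcl2 is often quoted for the readiness of a cell to die, and it was taken on each array as the Bax signal minus the Bcl2 signal of A_51_P380013. Only its change between arrays can be read, since the probes differ. It was -5.64, -5.75, -4.76 and -5.38 in Glis3KO2, against -6.03, -5.66, -4.48 and -4.15 in WT. The means were -5.38 ± 0.44 in Glis3KO2 and -5.08 ± 0.91 in WT (SD, n = 4 each). The difference of -0.30 was smaller than the WT spread, and it was 0.0080 without WT replicate 4 and 0.46 without WT replicates 3 and 4.

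Probes printed 10 times on each array show how much of the spread lies within an array. The SD of the spots on 1 array was 0.057 to 0.12 for Bax, 0.034 to 0.142 for Bcl2l1 A_52_P148861 and 0.031 to 0.12 for Bcl2 A_52_P534870. The pooled SD between arrays of a genotype was 0.315, 0.347 and 0.990 for the same probes. The spots of an array agreed far more closely than the arrays of a genotype for these 3 probes. Over the 17 member probes the pooled SD ran from 0.25 to 0.99, with 10 below and 7 above the median of all probes, 0.459.

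**Figure D4:**
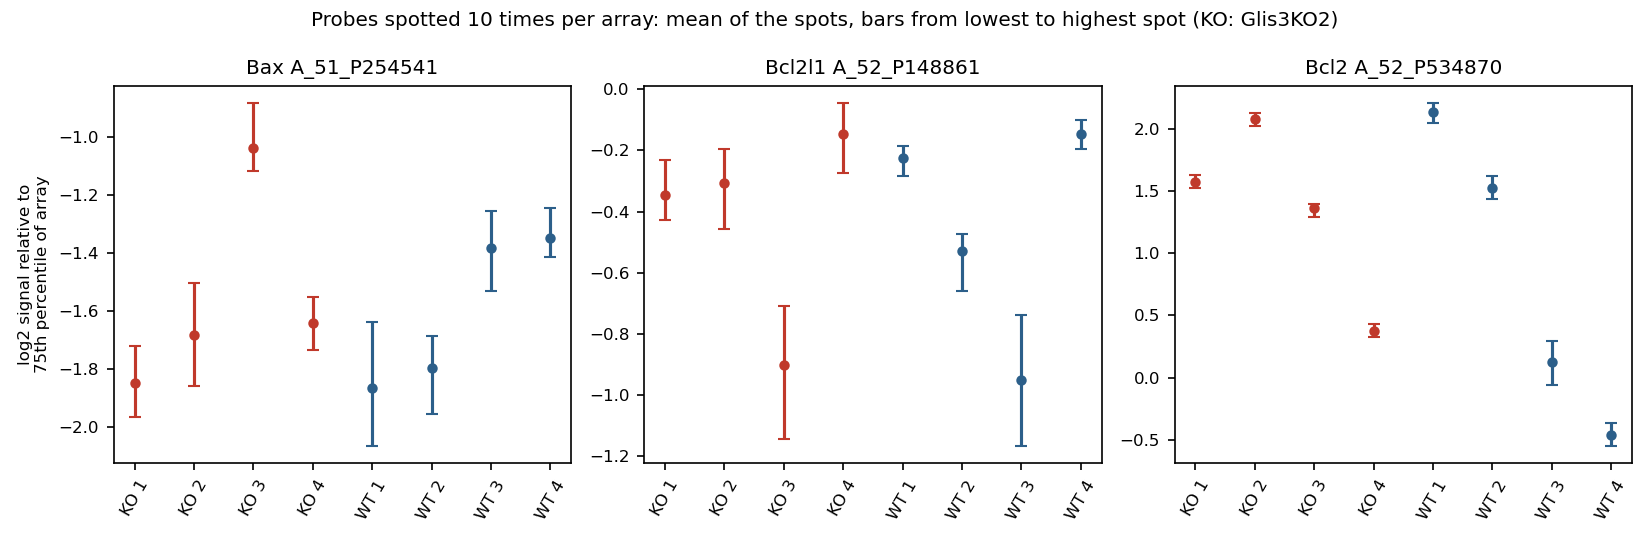
Mean log2 signal of the spots (y axis) of the 3 BCL2 family probes printed 10 times, by array (x axis), Glis3KO2 left of WT. Bars run from the lowest to the highest spot. Spots of an array lie close together (SD at most 0.142), and the arrays of a genotype lie farther apart.

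Bcl2l11 encodes BIM, a BH3-only protein that binds every guardian. Its probe A_52_P158527 had 0.02, -0.44, -0.01 and -0.35 in Glis3KO2, against -0.03, -0.02, -0.38 and -0.62 in WT. Probe A_51_P484880 had -0.87, -1.68, -0.97 and -2.03 in Glis3KO2, against -1.39, -1.19, -2.35 and -1.46 in WT. Both are listed for the same transcript, and on both the genotypes overlapped, with differences of 0.07 (SE 0.24, interval -0.48 to 0.61, adjusted p = 0.963) and 0.21 (SE 0.35, interval -0.58 to 1.0, adjusted p = 0.904). The second turned to -0.09 with normexp, and was 0.15 with normexp and quantile normalization. Probe A_52_P348214, listed for another Bcl2l11 transcript, had -2.96, -3.87, -3.21 and -2.69 in Glis3KO2, against -1.58, -3.10, -3.27 and -2.90 in WT. WT replicate 1 was the highest of the 8, and the difference was -0.47 (SE 0.41, interval -1.38 to 0.44, adjusted p = 0.811). It was -0.09 without that array. No Bcl2l11 probe passed the test in either direction.

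Bbc3 encodes PUMA, a BH3-only protein that p53 is known to induce. Its probe A_51_P248122 had 0.86, 1.25, 0.79 and 1.08 in Glis3KO2, against 0.79, 2.09, 0.88 and 0.20 in WT. The WT arrays spread on either side of all 4 Glis3KO2 arrays. The difference was 0.0037 (SE 0.38, interval -0.83 to 0.84, adjusted p = 0.999). It was -0.39 between replicates 1 and 2 of each genotype and 0.40 between replicates 3 and 4.

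Pmaip1 encodes NOXA, another p53 target, which binds MCL1. Its probe A_51_P477121 had 0.17, 0.35, 0.66 and 0.61 in Glis3KO2, against 0.16, 0.89, 1.37 and 1.57 in WT. WT replicate 1 was the lowest of all 8 arrays and the other 3 WT arrays were the highest. The difference was -0.55 (SE 0.33, interval -1.27 to 0.18, adjusted p = 0.761), a fold of 0.685. WT replicates 3 and 4, where the germ cell markers were high, were the top pair, and without them the difference was -0.07. Without WT replicate 1 it was -0.83, so the value rests on which WT arrays enter.

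Bid is cleaved by caspase 8 and carries the death receptor signal to the mitochondrion. Its probe A_52_P574653 had -1.16, -1.43, -1.51 and -1.45 in Glis3KO2, against -0.11, -1.45, -0.87 and -1.04 in WT. WT replicate 1 was the highest and WT replicate 2 lay among the Glis3KO2 arrays. The difference was -0.52 (SE 0.30, interval -1.19 to 0.15, adjusted p = 0.761), a fold of 0.697. It was -0.85 on slide 1 and -0.19 on slide 2, and -0.27 without WT replicate 1.

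Bad binds BCL2 and BCL-XL when survival kinases no longer phosphorylate it. Its probe A_51_P419364 had -1.98, -2.47, -2.18 and -1.79 in Glis3KO2, against -1.49, -2.18, -1.68 and -1.84 in WT. WT replicates 2 and 4 lay among the Glis3KO2 arrays. The difference was -0.31 (SE 0.25, interval -0.88 to 0.25, adjusted p = 0.799), a fold of 0.806. It was -0.50 on slide 1 and -0.12 on slide 2, and -0.19 without Glis3KO2 replicate 2. With normexp it was -0.59, and with normexp and quantile normalization -0.17. Pmaip1, Bid and Bad were lower in mean in Glis3KO2, Bbc3 and 2 of the 3 Bcl2l11 probes were not, and none of these BH3-only probes passed the test.

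Genes around the members were read from 7 further lists, with 1 probe for each gene and adjustment over 17513 genes. These lists leave out the 10 members and named 127 genes, of which 122 were measured. At adjusted p under 0.05 limma called 0 of 122, against 0 of all genes (0%). At unadjusted p under 0.05 it gave 9 of 122 (7.38%), against 1208 of all genes (6.9%). Blocked by replicate number, the count was 7 list genes, against 1877 of all genes. The 9 list genes became 1 without WT replicates 3 and 4, where all genes gave 770. They became 4 without WT replicate 3, where all genes gave 663, and 4 without WT replicate 4. Without Glis3KO2 replicate 1 they were 3, and without Glis3KO2 replicate 3 they were 5. The mean was higher in Glis3KO2 for 63 of the 122 genes and lower for 59, with a median of 0.02 against -0.08 over all genes. At unadjusted p under 0.05 the list genes were 3 higher and 6 lower, against 377 (2.15%) and 831 (4.75%) of all genes. Groups were apart for 613 of all genes (3.5%). They were apart for 5 list genes, all lower in Glis3KO2, against 455 of all genes in that direction (2.6%), and for 0 in the other, against 158 (0.902%). None of the differences that follow passed the test, and the smallest adjusted p in the lists was 0.697.

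The list of other BCL2 family genes was drawn widely and also holds Bnip2, Moap1 and Becn1, so its counts are not the family's alone. Of its 18 genes 14 were measured, 7 higher and 7 lower, with a median of -0.02. Bik, a BH3-only gene, had -3.38, -3.31, -2.76 and -2.95 in Glis3KO2, against -0.41, -2.95, -0.55 and -2.28 in WT. WT replicates 1 and 3, both on slide 1, were high, and the difference was -1.55 (SE 0.54, adjusted p = 0.697), or -2.59 on slide 1 and -0.52 on slide 2. Hrk, the BH3-only gene of harakiri, had -1.36, -3.07, -0.64 and -0.22 in Glis3KO2, against -1.53, -3.62, -2.65 and -3.23 in WT. Glis3KO2 replicate 2 was low like WT replicates 2, 3 and 4, and WT replicate 1 lay near Glis3KO2 replicate 1. The difference was 1.44 (SE 0.63, adjusted p = 0.697), 0.30 with normexp and 0.82 with normexp and quantile normalization. It was 0.37 between replicates 1 and 2 of each genotype and 2.51 between replicates 3 and 4. The guardian Bcl2l2 differed by -0.79 (SE 0.58), with WT replicate 1 at 2.21 and every other array at 0.18 or below. Without WT replicate 1 it was -0.15.

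Downstream of the mitochondrion, 21 genes of the apoptosome, the caspases and their inhibitors were measured, 9 higher and 12 lower, with a median of -0.05. Unadjusted p was under 0.05 for 1 of the higher and 4 of the lower genes, a share of 23.8% beside 6.9% of all genes (2.15% higher and 4.75% lower). Over all the lists together this count was 9, against 1208 of all genes. Without WT replicates 3 and 4 it was 1, against 770 of all genes. Aifm1, a flavoprotein of the space between the mitochondrial membranes, had 0.22, 0.11, 0.50 and 0.56 in Glis3KO2, against 1.0, 0.61, 1.06 and 1.30 in WT. All WT arrays were above all Glis3KO2 arrays, with a difference of -0.65 (SE 0.23, adjusted p = 0.697), and its other probe gave -0.96. Without WT replicates 3 and 4 the difference of -0.65 became -0.46 (SE 0.28). Naip2, which senses bacterial proteins, differed by 0.79 (SE 0.30). It turned to -0.31 with normexp, and was 0.25 with normexp and quantile normalization. Casp9, the apoptosome's caspase, at -0.60 (SE 0.26), and Endog, a mitochondrial nuclease whose groups were apart, at -0.49 (SE 0.19), are named after their values were seen.

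The p53 pathway list had 21 measured genes, 12 higher and 9 lower, with a median of 0.05, and 1 at unadjusted p under 0.05. That gene was Tigar, a regulator of sugar metabolism, at 1.50 (SE 0.63). On 1 WT array its probe was not well above background, and its other 2 kept probes gave -0.61 and -0.75. Rrm2b, a ribonucleotide reductase subunit, differed by 0.45 (SE 0.29). It turned to -0.12 with normexp, and was 0.27 with normexp and quantile normalization. Cdkn1a, the cell cycle inhibitor p21, differed by -0.66 (SE 0.54). Cdkn1a was -0.21 without WT replicate 3. Trp53 itself differed by -0.06, and Mdm2 by -0.19. The share of the list at unadjusted p under 0.05 was 4.76%, beside 6.9% of all genes.

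Among 14 death receptor genes 8 were higher and 6 lower, with a median of 0.12 and none at unadjusted p under 0.05. Tnfrsf25 (0.31), the adaptor Tradd (0.35) and the ligand Fasl (-0.42) had the smallest unadjusted p of the list. Tradd turned to -0.06 with normexp, and was 0.14 with normexp and quantile normalization. The other probes of Tnfrsf25 and Fasl gave -0.03 and 0.26, and Fasl was -0.14 without WT replicate 1. Of 16 mitochondrial partners 6 were higher and 10 lower, with a median of -0.10. Bag6, a chaperone, had groups that were apart and a difference of -0.44 (SE 0.20), while its other probes gave -0.20 and 0.22. Immt, a cristae organiser, differed by -0.67 (SE 0.31), while its other probe gave -0.09. Vdac2, a channel of the outer membrane that holds BAK, differed by 0.64 (SE 0.33), and this was 0.38 without Glis3KO2 replicate 1. Leaving out WT replicates 3 and 4 gave 0.36 for Vdac2.

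Among 20 kinases, 14-3-3 proteins and ubiquitin enzymes that act on members, 10 were higher and 10 lower, with a median of 0.01. Ywhah, a 14-3-3 protein, differed by 0.41 (SE 0.21) and the calcineurin subunit Ppp3ca by 0.37. Ppp3ca was 0.21 without WT replicate 3 and 0.09 without WT replicates 3 and 4. Of 17 transcription factors that act on members 16 were measured, 11 higher and 5 lower, with a median of 0.06. E2f1, a cell cycle factor, had 2.25, 2.23, 2.09 and 2.27 in Glis3KO2, against 2.44, 2.43, 3.32 and 3.02 in WT. Its groups were apart, with a difference of -0.59 (SE 0.25, adjusted p = 0.697), and WT replicates 3 and 4, the arrays with high germ cell markers, were the highest. Without them it was -0.22. Stat5b differed by 0.42 (SE 0.21), with its other probe at -0.05, and Foxo3, a forkhead factor known to act on Bcl2l11 and Bbc3, by -0.37 (SE 0.23), or -0.11 without WT replicates 3 and 4.

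**Figure D5:**
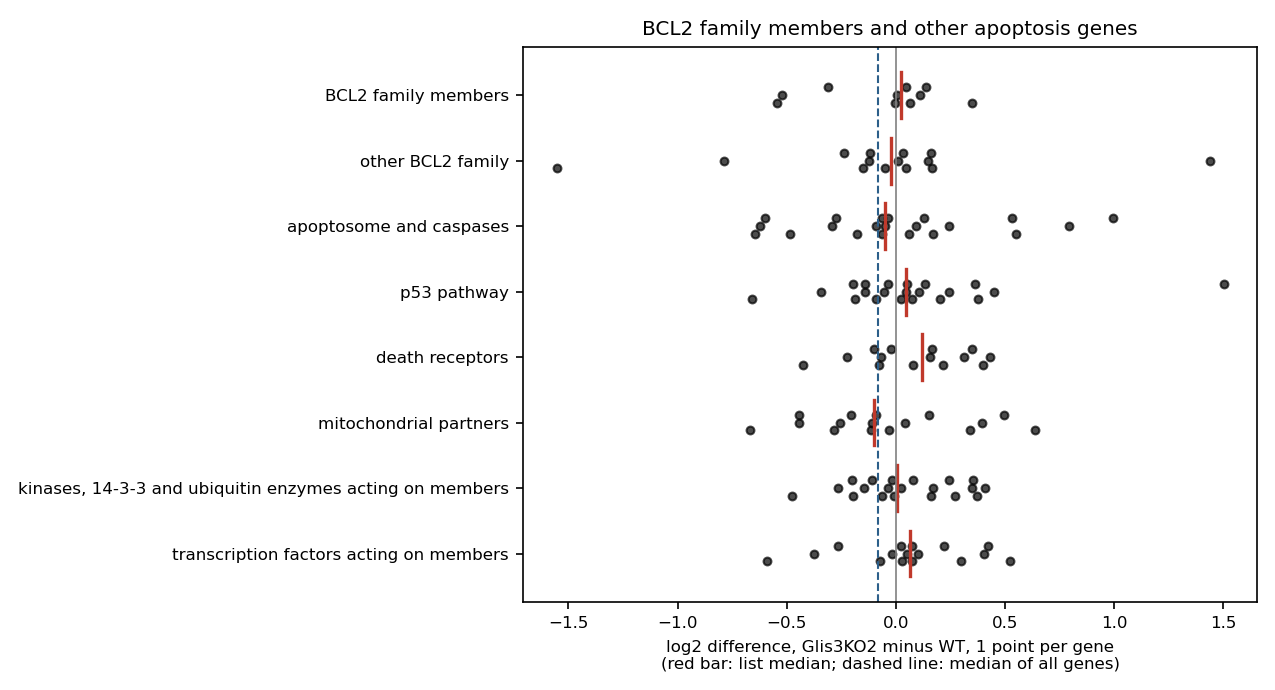
Log2 difference (Glis3KO2 minus WT, x axis) of each measured gene in the BCL2 family and in 7 other apoptosis lists (y axis), with the list median as a red bar and the median of all genes (-0.08) as a dashed line. The list medians lie between -0.10 and 0.12, and Bik, Hrk and Tigar lie beyond 1 in either direction.

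The genes whose signal ran most like that of Bax and of Bcl2 over the 8 arrays were sought among 16698 genes. For Bax these were Cep290 (r = 0.95), a protein of the ciliary transition zone, Cenpw (r = 0.95), a centromere protein, and Knl1 (r = 0.95), a kinetochore scaffold. Their differences between the genotypes were -0.08, 0.01 and 0.06. For Bcl2 (A_51_P380013) they were Rcsd1 (r = 0.99), a protein that binds capping protein, Asph (r = 0.98), a hydroxylase of the endoplasmic reticulum, and Myadm (r = 0.98), a membrane protein. Theirs were 0.50, 0.37 and 0.34. The arrays share the libraries and the WT samples that stand apart, so these r values describe the arrays only.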

How the data were processed

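RNA of Thy1+ testis cells was amplified (NuGEN Ovation Pico WTA), labelled with Cy3 and hybridised to 8 one-colour Agilent arrays, per the labels' protocols. The deposited files hold spot intensity on a linear scale, which Agilent's Feature Extraction (12.0.0.7) had background-subtracted, per the file headers. The series' deposited value table equals that intensity on 100% of spots (relative tolerance 1e-06). Its column medians ran from 67.2 to 143.6 (linear, not centred), so it is not an independent normalization.

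From these intensities, log2 minus each array's 75th percentile (243 to 533 units) was computed, outlier spots (73 to 109 per array) were left out, and spots of a probe were averaged. Well above background were 86.0% to 90.3% of spots; precision is limited by how many arrays there are. Probes were named through their RefSeq accession in a GRCm38.p6 gene table: 28223 matched 1 gene and 12951 none. Probes well above background on at least 4 arrays were kept (36429 probes, 17513 genes), and the brightest kept probe stood for its gene. limma 3.58.1 in R 4.3.3 (lmFit, eBayes, genotype only) was run on all probes and on all genes, with Benjamini-Hochberg adjustment, and the fits were tested on simulated data. Normexp (offset 50) was run on the median spot and local background intensity.

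The text names all members, Glis3, Thy1, up to 3 genes of smallest p from each list, and the 3 genes most like Bax and Bcl2, leaving out provisional symbols. Some genes that this rule takes are not reported here. Thy1 differed by 0.65 (SE 0.44), or 0.23 without WT replicate 4 and 0.078 without WT replicates 3 and 4. Its other probe gave 1.28 (SE 0.73), and the mean of its probes 0.97. The members and lists were chosen with earlier results of these data known. Same-numbered samples deviated together across the kept probes (r = 0.13, 0.27, 0.13 and 0.13, all over 0.1). Glis3KO2 replicate 4 with WT replicate 3 gave 0.12, and Glis3KO2 replicate 3 with WT replicate 4 gave 0.09. For replicates 3 and 4 the values therefore do not show a pairing by number. A fit blocked by replicate number was run beside the main one. Replicates 1 and 3 of each genotype lay on slide 1 and replicates 2 and 4 on slide 2. Differences within replicates 1 and 2 or 3 and 4, values without WT replicate 1 and the motif letters were added after the data were seen. The fits were rerun with other normalizations, background corrections, filters, blocks and array weights, and without single arrays.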

Additional observations from a re-analysis of the deposited data

Results flagged for a closer look

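Among 80 groups of 4 arrays tested for a value far from the others, 1 stood out, and about 1 in 20 would by chance. Stat5b, a transcription factor of cytokine signalling, stood at 1.53 on Glis3KO2 replicate 3, below the other Glis3KO2 arrays at 2.11, 2.02 and 2.09 and level with the WT arrays at 1.51, 1.56, 1.46 and 1.55. Without that array its difference was 0.56, against 0.42 with it. No BCL2 family probe was so set apart in either genotype.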

How the results depend on the processing

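Over 15 settings other than leaving out 1 array, 567 of 618 recomputed values were counted as unchanged. Unchanged meant the same direction and side of the threshold, or for counts within 1.5 times. For Bax minus Bcl2 and the members' median it meant within the SD between arrays, whatever the direction. The blocks, the trend and robust fit and the filters left each member probe's difference as it was, so its direction could not turn there. Leaving out 1 array at a time left 365 of 400 unchanged in this sense. No BCL2 family probe reached adjusted p under 0.05 under any setting run, and the cause of each change below was not tested.

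Without WT replicates 3 and 4, Bcl2 was -0.19 (A_51_P380013) and -0.48 (A_52_P534870), Mcl1 -0.20 (A_51_P238786) and -0.22 (A_52_P93933), Bak1 A_52_P225207 -0.11, Bcl2l1 -0.049 (A_52_P148861) and 0.0023 (A_52_P510877), Bcl2l11 -0.096 (A_51_P484880) and -0.17 (A_52_P158527), and Bbc3 -0.45. Bax minus Bcl2 was then 0.46 and the members' median -0.18. Counts at unadjusted p under 0.05 were 1659 probes, 770 genes, 1 list gene and 1 BCL2 family probe (Bcl2l1 A_51_P299454).

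With normexp and the 75th percentile, Bax was -0.28, Bak1 A_51_P395011 -0.14, Bcl2l1 -0.071 (A_52_P148861) and 0.059 (A_52_P510877), Bcl2l11 A_51_P484880 -0.090, Naip2 -0.31, Rrm2b -0.12 and Tradd -0.063. At unadjusted p under 0.05 there were 2 BCL2 family probes (Bid and Bcl2l1 A_51_P299454) and 1 BCL2 family gene (Bid). With normexp and quantile normalization Bbc3 was -0.10 and 14 list genes had unadjusted p under 0.05. Among probes at unadjusted p under 0.05, 60.8% were lower in Glis3KO2, against 78.4% with normexp, 49.7% with quantile normalization and 49.2% with both.

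Quantile normalization alone gave Bbc3 -0.013 and 1 gene at adjusted p under 0.05, the provisional gene Gm16702, which was also the 1 gene at an adjusted p threshold of 0.1. It is named after its value was seen (-2.93, adjusted p = 0.0675, in the limma fit; -2.63, adjusted p = 0.0245, with quantile normalization). The median in place of the 75th percentile gave Bcl2l1 A_52_P510877 0.0076. Within slide 1, Bak1 A_52_P225207 was -0.077, Bcl2l1 -0.036 (A_52_P148861) and 0.31 (A_52_P510877), and Bbc3 -0.013. Within slide 2, Bax was -0.090 and Bcl2l11 -0.53 (A_51_P484880) and -0.070 (A_52_P158527). The mean of a gene's probes gave Bcl2l11 -0.064, and probes well above background on all 8 arrays gave Tigar -0.61.

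That filter, the replicate block, and the trend and robust fit each gave 1 BCL2 family probe at unadjusted p under 0.05 (Bcl2l1 A_51_P299454), and array weights gave 1 probe and 1 gene (Pmaip1). The block gave 1877 genes and 7 list genes at unadjusted p under 0.05, against 1208 and 9 in the main fit. Apart from the 1877 genes and the 1 BCL2 family probe, its values were counted as unchanged in the sense given above. Array weights gave 4114 probes, 2314 genes and 15 list genes at unadjusted p under 0.05, Bax -0.037 and Bcl2l1 A_52_P510877 0.081.

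Leaving out 1 array gave 0 to 1 probes at adjusted p under 0.05 (Ric3, without Glis3KO2 replicate 3, named after its value was seen). At unadjusted p under 0.05 it gave 1384 probes (without WT replicate 3) to 4244 (without WT replicate 2), 663 to 2408 genes with the same arrays left out, 3 list genes (without Glis3KO2 replicate 1) to 10, and 0 to 1 BCL2 family probes and genes. Bax minus Bcl2 ran from -0.62 to 0.0080, Bax from -0.13 to 0.14, Bbc3 from -0.26 to 0.37, Mcl1 A_52_P93933 from -0.014 to 0.32, Bcl2l1 from -0.13 to 0.20 (A_52_P148861) and -0.19 to 0.21 (A_52_P510877), and Bcl2l11 from -0.041 to 0.42 (A_51_P484880) and -0.054 to 0.15 (A_52_P158527).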
